A study of Mus musculus with 6 samples.

Results

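CTCF peaks that lay where the ends of close genes meet were examined. A peak was taken when its midpoint was within 1 kb of an end of 2 or more different protein-coding genes. An end is the lowest or highest coordinate of a RefSeq gene record of GRCm38, the build also called mm10. Of 32987 peaks on chromosomes 1 to 19 and X in 4 peak lists, 278 met this rule, and they are called two-gene peaks. A further 1876 peaks lay within 1 kb of the ends of exactly 1 gene and served as the comparison. The two-gene peaks numbered 114 in untreated 1, 43 in untreated 2, 114 in chromium 1 and 7 in chromium 2. Merging peaks that overlapped between lists left 228 distinct two-gene sites, of which 222 touched exactly 2 genes and 6 touched 3 or more, and 427 genes were involved.

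The lists came from chromatin immunoprecipitation and sequencing of CTCF in the mouse hepatoma cell line Hepa-1c1c7. The untreated group (0 µM chromium) and the chromium group (25 µM potassium chromate, a hexavalent chromium salt, for 90 min before fixation) each had 2 libraries, numbered 1 and 2. The series addresses how chromium affects where CTCF sits. Both groups are 1 cell line, and the labels do not state whether a group's libraries were separate cultures. The tests therefore measure only the spread between these libraries. Peak lists hold no expression values, so the hepatocyte identity of the line could not be checked here. The whole lists differed widely in length, from 1905 peaks in chromium 2 and 4495 in untreated 2 to 11707 in untreated 1 and 14880 in chromium 1. Sequencing depth is not known, and in both groups the number 1 list was the longer.

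The zinc finger protein CTCF recognises a long DNA motif, holds cohesin at the bases of chromatin loops and is found at insulators and at many promoters. Mammalian genes often lie head to head and share a bidirectional promoter, which is commonly rich in CpG and serves housekeeping genes such as those for DNA repair, ribosomes and mitochondria. Other neighbours lie tail to tail or in tandem, so that a peak between their ends may be close to a transcription start, a transcript's 3′ end, or both.

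These are some of the promoter windows that lie under two-gene sites that recurred in several lists and are described further on. Each is the part of a RefSeq promoter window (250 bases before to 50 bases after a gene's start, GRCm38.p6) that the peaks of the site covered, on the plus strand of the chromosome. Capitals mark matches to the CTCF core CCNNNAGNNGGC, or its reverse complement, found by search on both strands. The first 5 belong to sites found in both untreated lists and in chromium 1, and each holds at least 1 core. The Slx1b window belongs to a site found in both untreated lists and neither chromium list, and it also holds a core. The Wrap53 window belongs to another site of 3 lists and held no core match in the bases covered. The choice favours windows with a core: of 27 two-gene sites of 2 or more lists with covered promoter bases, 12 held one. Windows without a core at other such sites are not shown.
Adprhl2 window of Adprhl2 and Tekt2, chr4:126321654-126321932, 279 bases: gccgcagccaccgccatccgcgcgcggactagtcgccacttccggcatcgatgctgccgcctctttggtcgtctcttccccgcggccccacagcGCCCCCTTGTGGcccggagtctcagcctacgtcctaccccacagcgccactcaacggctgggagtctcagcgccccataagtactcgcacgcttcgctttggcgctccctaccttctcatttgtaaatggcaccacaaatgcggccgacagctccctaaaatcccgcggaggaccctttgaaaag
Chd1l window of Chd1l and Fmo5, chr3:97610141-97610378, 238 bases: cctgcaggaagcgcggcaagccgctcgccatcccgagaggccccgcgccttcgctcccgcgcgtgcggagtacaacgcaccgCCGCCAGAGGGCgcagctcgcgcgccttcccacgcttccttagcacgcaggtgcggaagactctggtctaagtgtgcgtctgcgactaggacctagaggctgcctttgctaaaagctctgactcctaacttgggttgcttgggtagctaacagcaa
Abca3 window of Abca17 and Abca3, chr17:24351807-24352072, 266 bases: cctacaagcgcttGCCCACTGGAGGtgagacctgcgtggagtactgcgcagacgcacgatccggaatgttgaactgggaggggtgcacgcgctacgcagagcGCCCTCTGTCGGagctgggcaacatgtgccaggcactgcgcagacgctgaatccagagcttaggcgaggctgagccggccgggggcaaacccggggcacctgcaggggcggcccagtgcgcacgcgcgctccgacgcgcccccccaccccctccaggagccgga
Slc35b2 window of Nfkbie and Slc35b2, chr17:45563686-45563985, 300 bases: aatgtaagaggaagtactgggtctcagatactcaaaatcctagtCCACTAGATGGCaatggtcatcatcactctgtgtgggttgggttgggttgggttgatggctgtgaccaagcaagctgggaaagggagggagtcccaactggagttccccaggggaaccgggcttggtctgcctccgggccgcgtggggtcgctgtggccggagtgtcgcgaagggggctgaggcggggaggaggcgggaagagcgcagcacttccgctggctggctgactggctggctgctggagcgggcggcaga
Exosc6 window of Aars and Exosc6, chr8:111056089-111056339, 251 bases: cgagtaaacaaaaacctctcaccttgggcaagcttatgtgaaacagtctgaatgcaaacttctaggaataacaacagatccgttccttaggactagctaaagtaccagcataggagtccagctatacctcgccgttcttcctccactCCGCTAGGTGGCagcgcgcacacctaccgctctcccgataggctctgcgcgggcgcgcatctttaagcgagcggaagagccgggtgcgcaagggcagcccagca
Slx1b window of Slx1b and Bola2, chr7:126695734-126696033, 300 bases: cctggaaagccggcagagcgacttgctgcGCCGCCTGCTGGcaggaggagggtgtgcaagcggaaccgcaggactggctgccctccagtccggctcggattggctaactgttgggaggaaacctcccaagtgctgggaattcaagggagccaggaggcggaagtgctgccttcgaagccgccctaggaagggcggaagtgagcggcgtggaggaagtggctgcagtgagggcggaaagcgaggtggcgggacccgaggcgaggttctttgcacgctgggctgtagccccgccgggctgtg
Wrap53 window of Wrap53 and Trp53, chr11:69579285-69579499, 215 bases: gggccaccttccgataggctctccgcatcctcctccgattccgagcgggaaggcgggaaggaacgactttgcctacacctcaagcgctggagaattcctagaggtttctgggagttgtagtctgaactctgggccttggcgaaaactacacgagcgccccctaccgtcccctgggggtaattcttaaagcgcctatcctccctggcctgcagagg

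Chromium lists held a smaller share of two-gene peaks than untreated lists in both pairs. Two-gene peaks made up 0.974% (exact 95% interval 0.804 to 1.17) of peaks in untreated 1 and 0.957% (0.693 to 1.29) in untreated 2. They made up 0.766% (0.632 to 0.920) in chromium 1 and 0.367% (0.148 to 0.756) in chromium 2. Both chromium values lay below both untreated values. The means were 0.965% ± 0.0121 (SD, n = 2) without treatment and 0.567% ± 0.282 (SD, n = 2) with chromium, a difference of -0.398 percentage points. In the two-sided exact permutation test over libraries p was 0.333, the smallest that 2 against 2 allows. The difference was -0.208 points in pair 1 and -0.589 points in pair 2, where the chromium value rests on 7 peaks. Without chromium 2 it was -0.199 points, and without chromium 1 it was -0.598.

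The 1-gene class moved the same way. It made up 6.39% of peaks in untreated 1, 6.21% in untreated 2, 5.20% in chromium 1 and 3.94% in chromium 2. The difference of means was -1.73 points (exact permutation p = 0.333). Among peaks near any gene end, two-gene peaks were 13.2% (11.0 to 15.7) in untreated 1, 13.4% (9.84 to 17.6) in untreated 2, 12.8% (10.7 to 15.2) in chromium 1 and 8.54% (3.50 to 16.8) in chromium 2. The first 3 lists were thus within 1 percentage point of each other on this measure, and the interval of chromium 2 covered all of them. The difference of group means was -2.60 points (exact permutation p = 0.333), but -0.452 without chromium 2 and -4.75 without chromium 1.

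**Figure D1:**
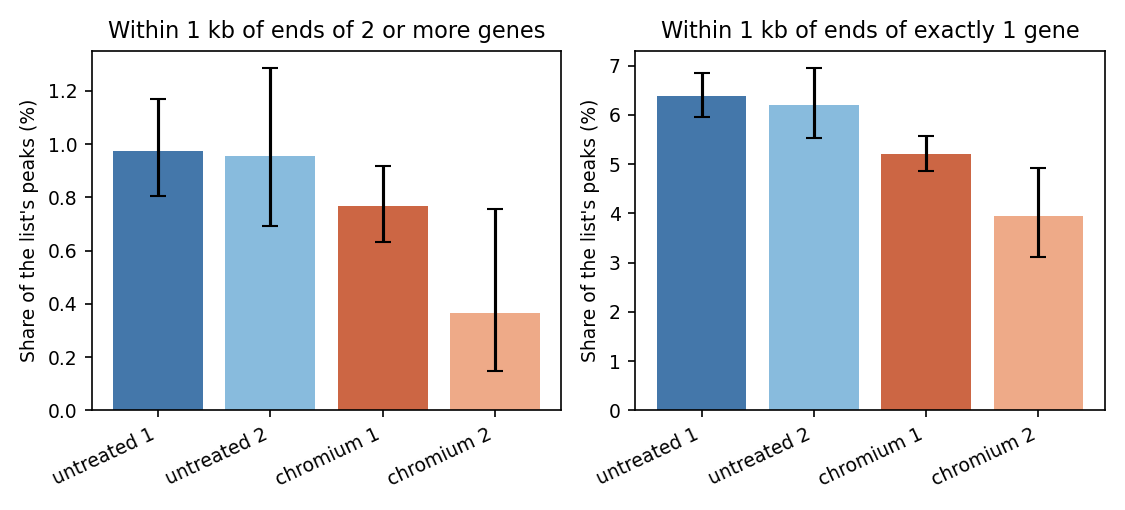
Share of each list's CTCF peaks (%, linear axes from 0) within 1 kb of the ends of 2 or more genes (left) and of exactly 1 gene (right), with bars for the 4 lists and exact 95% binomial intervals. The two-gene share is 0.974% and 0.957% in the untreated lists and 0.766% and 0.367% in the chromium lists, and the 1-gene share falls in the same order.

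Two-gene ground held more peaks per base than 1-gene ground in the 3 longer lists. Bases within 1 kb of 2 or more gene ends came to 5.82 Mb, or 7.42% of all bases near a gene end, against 72.6 Mb near exactly 1 gene. The density of peaks on two-gene ground was 1.90 times (exact 95% interval 1.55 to 2.32) that on 1-gene ground in untreated 1 and 1.92 times (1.36 to 2.66) in untreated 2. It was 1.84 times (1.495 to 2.24) in chromium 1 and 1.16 times (0.452 to 2.52) in chromium 2. These intervals treat peaks as independent and cover counting error only. Since peaks were unevenly spread over chromosomes, the ratio was also taken within chromosomes, where it was 1.82, 1.83, 1.72 and 1.15 in the same order of lists.

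Density depended on which ends met. Strand, and so the kind of end, was known for 17274 of 21631 genes. In untreated 1 there were 5.96 peaks per Mb near a lone 3′ end, 14.4 near a lone 5′ end, 12.5 where a pair of 3′ ends met, 25.9 where a 5′ and a 3′ end met and 27.9 where a pair of 5′ ends met. Chromium 1 gave 8.83, 12.4, 13.9, 24.9 and 25.5 peaks per Mb for the same kinds of ground. Untreated 2 gave 2.16, 4.81, 2.94, 10.5 and 7.72. Among these 5 kinds of ground, those with a 5′ end and a second gene end held the densest peaks in each of the 3 lists. Ground with a pair of 5′ ends held 1.94 times (1.41 to 2.63) as many peaks per Mb as a lone 5′ end in untreated 1, 2.05 times (1.46 to 2.82) in chromium 1 and 1.61 times (0.834 to 2.84) in untreated 2. Chromium 2, with 2 such peaks, gave 0.877 times (0.103 to 3.38).

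**Figure D2:**
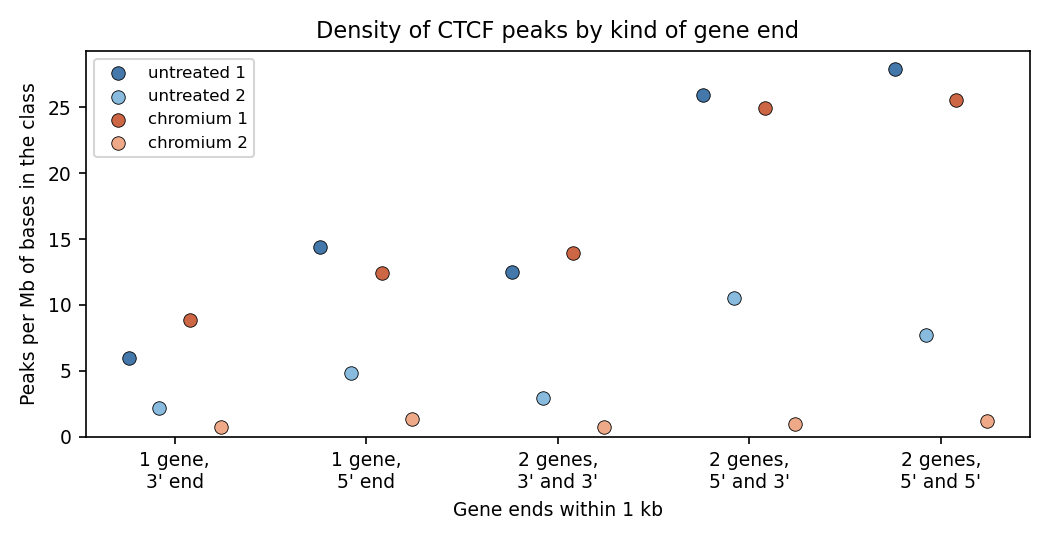
Peaks per Mb (linear axis) of the bases within 1 kb of the named kinds of gene end, 1 point per list. In untreated 1 the density is 5.96 near a lone 3′ end and 27.9 where a pair of 5′ ends meet, and chromium 1 runs from 8.83 to 25.5, while chromium 2 stays under 2 in each kind.

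Gene pairs were also counted, whatever the amount of ground between them. The annotation holds 4585 pairs of protein-coding genes with ends close enough for the rule, leaving out 225 pairs that share an end base, and 213 of them (4.65%) had a two-gene peak in at least 1 list. Of 1021 pairs with a pair of 5′ ends facing the shared ground, 82 had a peak (8.03%, 6.44 to 9.87). Of 974 pairs with a 5′ and a 3′ end there, 47 had one (4.83%, 3.57 to 6.37). Of 1065 pairs with a pair of 3′ ends there, 36 had one (3.38%, 2.38 to 4.65). Pairs with a pair of 5′ ends were therefore 49.7% of the 165 pairs with a peak and known strand, but 33.4% of the 3060 close pairs of known strand. These counts do not allow for ground, which was 1.68 Mb for a pair of 5′ ends and 1.04 Mb for a 5′ with a 3′ end. Over all lists these kinds of ground held 62.4 and 62.3 peaks per Mb, against 30.1 for a pair of 3′ ends. Among pairs with peaks in 2 or more lists, counting any peak of the pair, 22 had a pair of 5′ ends, 12 had a 5′ and a 3′ end and 5 had a pair of 3′ ends. Counted by site, a pair of 5′ ends made up 50% of 34 recurring sites of known strand and 49.6% of 137 sites of 1 list.

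Of the 222 sites with exactly 2 genes, 74 had genes that overlapped and 148 had separate genes with a median gap of 225 bp. Among all 4585 close pairs of the annotation 1520 overlapped, a similar share. The median distance from the site to the nearer gene end was 281.5 bp and to the farther one 575.5 bp. Most sites were not strictly between the genes: 144 lay inside 1 gene of the pair, 19 inside both and 59 outside both. The last count includes some sites beside overlapping genes, which have no gap. By orientation, 85 sites had a pair of 5′ ends, 51 a 5′ and a 3′ end, 35 had a pair of 3′ ends, and for 51 the strand of a gene was not matched. Where a pair of 5′ ends met and the genes were separate, the median gap was 92.5 bp, against 722 bp for a 5′ with a 3′ end and 412 bp for a pair of 3′ ends. All close pairs of the annotation, overlapping ones included, had the same order, with median distances of 167, 830.5 and 550 bp. These distances are not the same measure as the gaps of separate genes, so only their order can be compared.

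Two-gene peaks recurred between lists more often than 1-gene peaks in all 4 libraries, although the size of that gap depended on the comparison. A peak was recurrent when it overlapped a peak of at least 1 other list by at least 1 bp. In untreated 1, 40 of 114 two-gene peaks recurred (35.1%, 26.4 to 44.6) against 24.9% of 1-gene peaks and 10.7% of all peaks of that list. In chromium 1 it was 35 of 114 (30.7%, 22.4 to 40.0) against 22.5% and 7.92%. In untreated 2 it was 17 of 43 (39.5%, 25.0 to 55.6) against 33.3% and 13.2%. In chromium 2 it was 1 of 7 (14.3%, 0.361 to 57.9) against 8.00% and 5.2%. Peaks away from gene ends recurred least, at 9.49%, 6.93%, 11.6% and 5.05% for untreated 1, chromium 1, untreated 2 and chromium 2.

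The gap between two-gene and 1-gene peaks was 10.2, 8.22, 6.20 and 6.29 percentage points in untreated 1, chromium 1, untreated 2 and chromium 2, a mean of 7.73 ± 1.90 points (SD, n = 4). It was positive in 4 of 4 libraries, and the two-sided exact sign-flip permutation test gave p = 0.125, the smallest it can give. The 4 values share matches, so they are not independent. Leaving out chromium 1 and its matches brought the mean gap to 0.508 points and leaving out untreated 1 brought it to 3.63, so the size of the gap rests on these lists, the longest of the 4. Against 1-gene peaks near a 5′ end only, a comparison chosen after seeing the data, the gap was 0.405 points (exact sign-flip permutation p = 0.875). Lone 5′ ends alone recurred at 29.2% in untreated 1, 44.4% in untreated 2, 31.9% in chromium 1 and 12.5% in chromium 2.

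**Figure D3:**
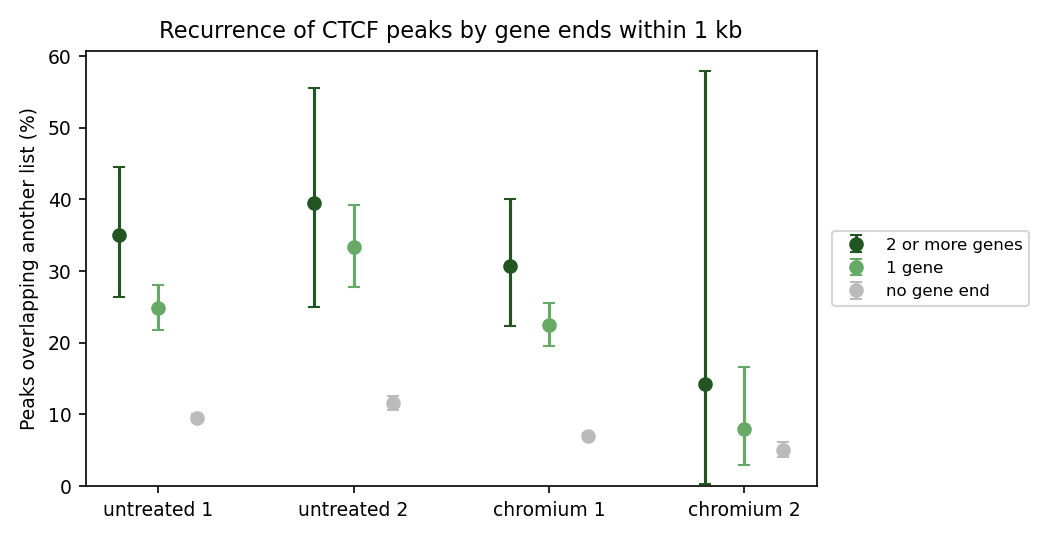
Share of peaks (%, linear axis) that overlap a peak of at least 1 other list, for two-gene peaks, 1-gene peaks and peaks near no gene end, by list, with exact 95% binomial intervals. Two-gene peaks stand highest in each list (35.1, 39.5, 30.7 and 14.3%), with intervals that overlap those of 1-gene peaks.

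Recurrence was mostly between the number 1 lists. Of the 114 two-gene peaks of untreated 1, 33 (28.9%) overlapped chromium 1, 15 (13.2%) overlapped untreated 2 and 0 overlapped chromium 2. Of the 43 of untreated 2, 15 (34.9%) overlapped untreated 1 and 10 (23.3%) overlapped chromium 1. Counting only matches in lists of the other number, the gap to 1-gene peaks was positive in 4 of 4 libraries, with a mean of 4.93 points. It was 2.60, 1.25, 6.92 and 8.95 points in untreated 1, chromium 1, untreated 2 and chromium 2.

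The rank of the peak score, which the rule did not use, differed between the classes in both directions. The median percentile of the peak score within its own list was 66.4 for two-gene and 66.4 for 1-gene peaks in untreated 1, and 57.7 and 58.0 in chromium 1. It was 61.9 and 51.7 in untreated 2, and 39.2 and 49.3 in chromium 2. The mean difference was -0.0330 percentile points ± 8.30 (SD, n = 4; two-sided exact sign-flip permutation p = 1), with 1 of 4 libraries positive and a smallest possible p of 0.125. Median widths of two-gene and 1-gene peaks were 238.5 and 240.0 bp in untreated 1, 231 and 234 bp in untreated 2, 238 and 233 bp in chromium 1, and 231 and 212 bp in chromium 2. The mean difference was 4.88 bp ± 10.0 (SD, n = 4), with 2 of 4 libraries positive. At the edge of the rule, the 70 peaks whose second gene end was 800 to 1000 bp away recurred in 24.3% of cases and had a median percentile of 57.8. The 68 whose second gene end was 1000 to 1200 bp away recurred in 14.7% and had a median percentile of 50.7.

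Merged into sites, 43 of 228 two-gene sites (18.9%, 14.0 to 24.6) were found in 2 or more lists, against 210 of 1627 1-gene sites (12.9%) and 4.56% of all 31284 sites. Chromium 1 alone held 79 two-gene sites, untreated 1 alone 74, untreated 2 alone 26 and chromium 2 alone 6. Of the shared sites, 25 were in untreated 1 and chromium 1 only, 8 in those and untreated 2, 7 in both untreated lists only, 2 in chromium 1 and untreated 2, and 1 in both chromium lists only. Over all 31284 sites these sets held 774, 220, 198, 134 and 15 in the same order. No two-gene site was in all 4 lists, where 2 of 1627 1-gene sites and 15 of all 31284 sites were. With so few such sites anywhere, a count of 0 among 228 says little.

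Sites of both untreated lists are where a loss with chromium could be seen. There were 15 such two-gene sites: 8 were also in chromium 1, none was in chromium 2, and 7 were in neither chromium list (46.7%, 21.3 to 73.4). The same share was 45.5% over all 435 sites of both untreated lists and 40.0% over the 80 such 1-gene sites, so two-gene sites were near the background. The 1 two-gene site of both chromium lists was in neither untreated list, against 36.6% of the 41 sites that both chromium lists held. With 1905 peaks in chromium 2, absence from that list says little about a site.

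**Figure D4:**
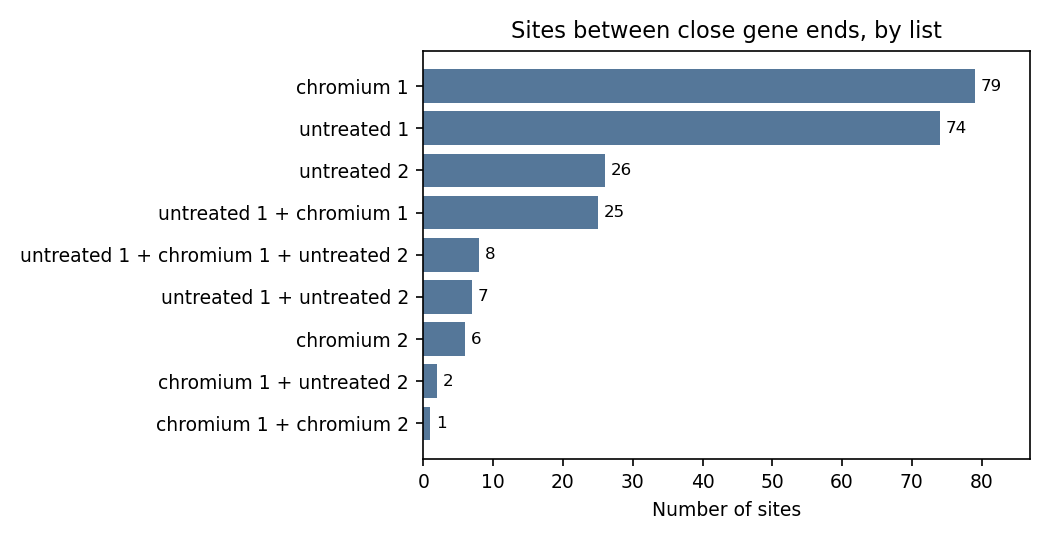
Number of two-gene sites by the set of lists that hold them (linear axis, 228 sites). The largest sets are single lists (79 and 74), and the largest shared set is untreated 1 with chromium 1 (25), ahead of both untreated lists alone (7) and both chromium lists alone (1).

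The 8 sites found in both untreated lists and chromium 1 had widely differing neighbours and ranks. The peak score is the authors' value, and its percentile places it in its own list. The highest-ranked was at chr10:128913259-128913608, in the 765 bp between the 3′ ends of Cd63, a tetraspanin of late endosomes, and Rdh5, a retinol dehydrogenase. Its scores were 30.4 in untreated 1, 8.65 in untreated 2 and 9.78 in chromium 1 (percentiles 99.9, 98.6 and 98.5). It was in the top 2% of all 3 lists.

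At chr4:126321631-126321932, between the 5′ end of Adprhl2, an ADP-ribosylhydrolase, and the 3′ end of Tekt2, a tektin of cilia and flagella, the scores were 8.10, 7.03 and 12.95 in untreated 1, untreated 2 and chromium 1 (percentiles 95.4, 94.9 and 99.6). The site at chr3:97609797-97610378 covered the overlapping 5′ ends of Chd1l, a chromatin remodeller recruited by poly-ADP-ribose, and Fmo5, a flavin monooxygenase. Its scores were 6.82, 10.4 and 16.9 (percentiles 90.3, 99.4 and 99.8). At both pairs chromium 1 had the highest percentile of the 3 lists, and both windows printed above hold a core. The site at chr17:24351807-24352081, over the overlapping 5′ ends of the ABC transporter genes Abca17 and Abca3, scored 13.9, 5.90 and 8.17 (percentiles 99.4, 85.9 and 97.0). Its Abca3 window held 2 cores.

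The other 4 sites ranked lower in untreated 2 or in chromium 1. The site at chr17:45563664-45563998, between the 3′ end of Nfkbie, an inhibitor of NF-κB, and the 5′ end of Slc35b2, a Golgi transporter of the sulfate donor, scored 11.4, 4.78 and 12.95 in untreated 1, untreated 2 and chromium 1 (percentiles 98.8, 61.9 and 99.6). The site at chr11:69579285-69579617 lay beside the 5′ ends of Trp53, the gene of the tumour suppressor p53, and Wrap53, which encodes a telomerase and Cajal body protein, and scored 10.2, 4.27 and 22.1 (percentiles 98.2, 49.3 and 99.95). It lay inside 1 gene of the pair, 799 bp from the nearer of the 2 gene-record ends, and was the highest-ranked two-gene peak of chromium 1. The Wrap53 window printed above belongs to a different annotated start of Wrap53, at chr11:69579249, just beside the site. At chr8:111056046-111056339, between the 3′ end of the alanyl-tRNA synthetase gene Aars and the 5′ end of the RNA exosome gene Exosc6, the scores were 6.60, 4.36 and 6.16 (percentiles 88.7, 52.7 and 88.3). At chr15:5116158-5116496, near ends of Card6 and the ribosomal protein gene Rpl37, they were 5.99, 8.40 and 4.88 (percentiles 82.6, 98.4 and 60.2). These 4 differ from the first 4 in that 1 list places them near its middle.

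Of the 7 sites found in both untreated lists only, 6 are described here, and the following pair of sites had percentiles above 90 in both lists. The site at chr7:126695581-126696076, between the 5′ ends of Slx1b, a structure-specific endonuclease subunit, and Bola2, an iron-sulfur cluster protein, scored 13.9 in untreated 1 and 6.50 in untreated 2 (percentiles 99.4 and 92.2), and the nearest chromium 1 peak was 13.5 kb away. The site at chr15:99725318-99725667, between Gpd1, the cytosolic glycerol-3-phosphate dehydrogenase, and Cox14, a cytochrome oxidase assembly factor, scored 11.3 and 6.58 (percentiles 98.8 and 93.4). Here chromium 1 had a separate peak 0.809 kb away that also lay near ends of both genes, with a score of 5.55 (percentile 80.9), so the pair itself kept a two-gene peak in that list.

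The other 4 sites of both untreated lists described here ranked lower in at least 1 of them. Near Nsd3, a histone methyltransferase gene, and Plpp5, a lipid phosphatase gene, the percentiles were 77.4 in untreated 1 and 85.9 in untreated 2. Near Abhd8 and the mitochondrial ribosomal gene Mrpl34 they were 33.6 and 76.2. At Fam131a and the chloride channel gene Clcn2 they were 18.3 and 61.9, and at Asic1, an acid-sensing ion channel gene, and Smarcd1, a BAF remodeller subunit gene, 57.3 and 20.6.

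Only 1 two-gene site was in both chromium lists. It lay at chr3:116006684-116007009 beside the 5′ ends of Slc30a7, a zinc transporter of the Golgi, and Extl2, a glycosyltransferase gene. Its scores were 6.31 in chromium 1 and 5.57 in chromium 2 (percentiles 88.9 and 91.8), and neither untreated list had a peak there. The other 6 two-gene peaks of chromium 2 were in no other list. They lay at Orm2 and Akna (percentile 85.0), at the 7 genes of the Ugt1a glucuronosyltransferase cluster that share 3′ ends (70.1), and at Slc48a1 with Hdac7, Ptpn6 with Grcc10, Recql with Golt1b and Gls2 with Spryd4. In the Ugt1a cluster untreated 2 held a separate peak with a percentile of 81.6.

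**Figure D5:**
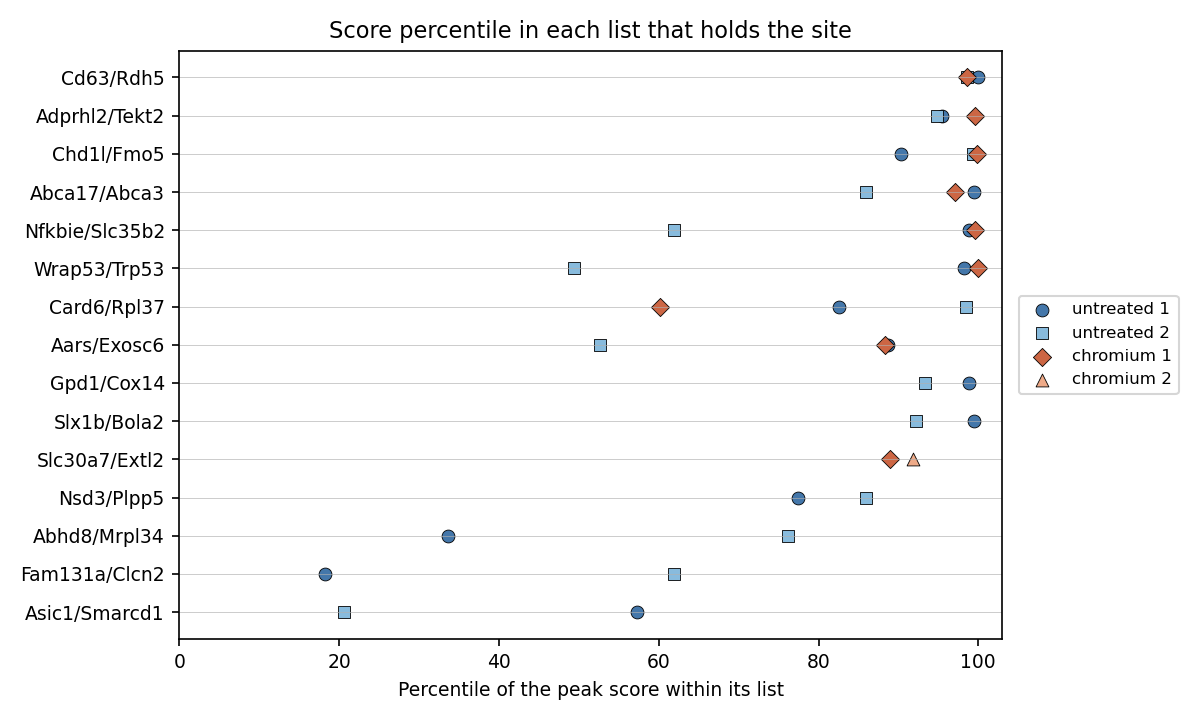
Percentile of the peak score within its own list (linear axis, 0 to 100) for the 8 two-gene sites of 3 lists and 7 found in both lists of 1 group only, 1 symbol per list that holds the site. Cd63 and Rdh5 lie above 98 in all 3 lists, whereas Wrap53 and Trp53 range from 49.3 in untreated 2 to 99.95 in chromium 1.

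The 25 sites shared by untreated 1 and chromium 1 alone are given here by the 10 with the highest mean percentile. At Exd1 and Chp1, a calcineurin-like protein gene, the percentiles were 98.7 in untreated 1 and 99.5 in chromium 1. At Dtl, a substrate receptor of a replication-coupled ubiquitin ligase, and Ints7, an Integrator subunit gene, they were 97.5 and 99.8. At Ubtd1 and Ankrd2 they were 99.2 and 98.0, and at Slc26a8 and Mapk14, which encodes the stress kinase p38α, 96.0 and 95.1. These 4 sites ranked in the top 5% of both lists. The other 6 were at Rpl36 with Lonp1 (a mitochondrial protease gene), C1qbp with Dhx33, Map1lc3b (the autophagy marker LC3B) with Zcchc14, Exosc8 with Alg5, Lrwd1 with Alkbh4, and Ddias with Prcp, with percentiles from 77.4 to 99.3. Untreated 2 had no peak at these sites, and its highest-ranked two-gene peak not found elsewhere was between the 5′ ends of Lamtor2, a Ragulator subunit gene, and Ubqln4 (score 11.2, percentile 99.6).

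Among functional groups, genes with a two-gene peak in any list were counted beside the background of 1.97% of all protein-coding genes (427 of 21631). A gene can have such a peak only where another gene end is close, and of the 7048 genes with one, 6.06% had a two-gene peak. The mitochondrial ribosome had 5 of 78 genes, which is 10.0% of its 50 genes with a close neighbour. They included Mrps12 (chromium 1, percentile 58.0, shared with Sars2) and Mrpl34. The respiratory chain and ATP synthase had 6 of 109 (9.23% of 65 with a neighbour), among them Cox14 and Ndufaf3, a complex I assembly factor gene shared with Dalrd3 (untreated 1, percentile 90.3). The cytosolic ribosome had 3 of 91 (6.82% of 44), namely Rpl36, Rpl37 and Rps2. Measured against genes with a neighbour, these groups were within a few points of 6.06%.

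DNA repair had 6 of 105 genes (8.11% of 74 with a neighbour), among them Slx1b, Pms1 (a mismatch repair gene, shared with Ormdl1, untreated 2, percentile 97.3), Recql, Recql5 and Dclre1b. RNA processing had 7 of 151 (7.87% of 89), including Exosc6, Exosc8 and Lsm11, a U7 snRNP gene (untreated 1, percentile 97.5). The stress response had 4 of 45 (Trp53, Mapk14, Ddit3 and Sqstm1), and the aryl hydrocarbon receptor and metal group had 4 of 24. The latter were Slc30a7, Ugt1a6a, Mtf1, the metal-responsive transcription factor (chromium 1, percentile 93.1), and Por, the P450 reductase (untreated 1, percentile 93.5). Of the genes with a close neighbour these were 26.7% of 15 in the stress response and 50.0% of 8 in the metal group, so the shares rest on few genes. Of the listed hepatocyte genes 2 of 37 had such a peak (22.2% of 9 with a neighbour), Rdh5 and Gpd1. Of the listed endosome and autophagy genes 2 of 186 had one (2.38% of 84), Atg9a and Rab40c. Neither list is complete, so these shares hold for the listed genes only. Cd63, Map1lc3b and Lamtor2 were outside the endosome and autophagy list, yet each had a two-gene peak. The same held for Apoa5, Mttp and Orm2 and the hepatocyte list. No histone gene (0 of 96, 55 with a neighbour) and no gene of CTCF and cohesin (0 of 23, 7 with a neighbour) had a two-gene peak. These lists carry no test.

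Two-gene sites were unevenly spread over the chromosomes. Chromosome 17 held 28 of 228 sites (12.3%, against 6.37% of close gene pairs) and chromosome 19 held 18 (7.89% against 3.86%). Chromosome 11 held 27, nearer to its share of pairs (11.8% against 9.31%). Chromosome 7 held 16 (7.02% against 9.47%), chromosome 9 held 2 (0.877% against 5.23%), and chromosomes 14 and X held 0. Chromosome 15 held 12 sites (5.26%), above its 3.42% of close gene pairs but below its 14.99% of all peaks. Chromosomes 17, 19 and 7 held 8.92%, 3.10% and 2.46% of all peaks. Chromosome 7 was thus low against gene pairs but high against peaks. Chromosome 9 also held few peaks of any kind (1.11%).

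Two-gene peaks lay over promoter windows more often than 1-gene peaks in the 3 longer lists. The share overlapping a RefSeq promoter window of one of their own genes was 43.0% of two-gene and 30.5% of 1-gene peaks in untreated 1, 44.2% and 28.7% in untreated 2, and 36.0% and 21.2% in chromium 1. In chromium 2 it was 0 of 7 (0%, upper limit of the exact interval 41.0) and 14.7%. A two-gene peak has more than 1 promoter to meet, which this share does not take out.

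Promoters of genes with two-gene peaks held the core CCNNNAGNNGGC, searched on both strands, in 14.9% of 370 genes (11.4 to 18.9), against 17.04% of 1121 genes with only 1-gene peaks and 9.99% of all 17274 genes with a window. It was held by 18 of 75 genes (exact 95% interval 14.9 to 35.3%) at two-gene sites of 2 or more lists. Their median GC content was 60.7% for two-gene, 58.3% for 1-gene, 63.7% for recurring two-gene and 56.3% for all genes, and the median CpG count per window was 21, 17, 23 and 14. Within the promoter bases that peaks themselves covered, 10 of 51 two-gene sites of 1 list (19.6%, 9.82 to 33.1) held a core, against 12 of 27 sites of 2 or more lists (44.4%, 25.5 to 64.7). For 1-gene sites these shares were 24.6% of 260 and 40.4% of 94. Recurring sites of both classes therefore held the core more often than sites of 1 list, with intervals that overlap for the two-gene class. Cores per kb of covered promoter were 1.33 in two-gene sites of 1 list and 2.70 in those of 2 or more lists. In 1-gene sites they were 1.48 and 2.02, and in all promoter windows 0.359.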

How the data were processed

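CTCF libraries of 2 untreated and 2 chromium samples of Hepa-1c1c7 cells each had a deposited peak list, and no input values were used. Bowtie, MACS2 and build mm10 are named per the submitters' processing notes, with neither version nor threshold. Per the peak names in the files, each library was called by itself, number 1 libraries against 1 input and number 2 libraries against another. Each peak carries a score deposited by the authors, whose scale is not stated, and which served only to rank peaks within a list. Depth is not known.

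Peaks were compared with RefSeq gene records of GRCm38.p6, and 15 peaks on Y and the mitochondrial genome were left out. Strand came from the RefSeq promoter table, and overlapping peaks of different lists were merged into sites. Peak density outside gene ends, planned at first, was not computed because chromosome lengths were not used here. Intervals are exact Clopper-Pearson 95% intervals and cover counting error over peaks only. Groups were compared by two-sided exact permutation tests over libraries. Named pairs were those of sites in 3 or more lists, sites of both lists of 1 group only, the 10 highest-ranked sites of both number 1 lists only, the 3 highest peaks of each list and up to 2 pairs of each of 11 gene lists. Other pairs and genes, named to complete a count, were chosen after their values were seen. One site named by the rule is left out of the text. Members and lists were chosen with earlier results of these data known. The class and matching steps were tested on simulated data. Python 3.11.15, numpy 2.4.6, pandas 2.3.3, scipy 1.17.1 and matplotlib 3.10.9 were used.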

Additional observations from a re-analysis of the deposited data

How the results depend on the processing

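The chromium minus untreated difference in the two-gene share stayed negative in all 13 alternatives tried (-0.607 to -0.191 points), and in the share among gene-end peaks in all 12 (-4.75 to -0.341). Leaving out 1 library at a time gave -0.598 to -0.199 and -4.75 to -0.452 points. With the replicate block the values were the same, -0.398 and -2.60, with an exact p of 0.5, the smallest it can give; same-numbered libraries share an input, and with 2 pairs the pairing could not be checked further. The gap in recurrence between two-gene and 1-gene peaks stayed positive in all 17 alternatives (0.405 to 14.3 points), and was 0.508 to 8.66 leaving out 1 library. With both classes limited to 5′ ends the mean gap was 6.94 points (exact sign-flip permutation p = 0.375). By library it was 8.40 in untreated 1, -3.74 in untreated 2, 2.27 in chromium 1 and 20.8 in chromium 2. The value of chromium 2 rests on a few of the 7 two-gene peaks of that list. The comparisons limited to 5′ ends and those without chromosomes 15, 17 and 18, which hold many peaks, were chosen after seeing the data.

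The difference in score percentile, near 0, changed sign with a window of 500 bp (2.19), with peaks at or above the median score (3.63), with lists of equal length (0.207), without gene models (0.421) and with genes that do not overlap (5.49), and leaving out 1 library gave -3.46 to 3.32. Sites in 2 or more lists numbered 25 with a 500 bp window and 87 with 2.5 kb, against 43; sites of both number 1 lists only numbered 14 and 48, against 25. Sites of both chromium lists only numbered 0 with 500 bp, and those of both untreated lists only 22 with 2.5 kb.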

Other observations

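Of the 213 gene pairs or groups with a two-gene site, 14 had more than 1 separate site. The pair of Camta2, a calmodulin-binding transcription activator gene, and Inca1 had 3 sites, each inside 1 of the genes. None of them recurred: 1 each was in chromium 1, untreated 1 and untreated 2 (percentiles 16.8, 33.6 and 61.9). Other pairs with 2 sites included Duoxa2 with Duoxa1, the maturation factor genes of the dual oxidases, Ppox, a haem synthesis gene, with Usp21, and Jmjd6 with Mettl23. They were named after their values were seen.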
